A study of Drosophila melanogaster with 2 samples.

Results

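Chromosome 4, the smallest chromosome of Drosophila melanogaster, held 416 of the 30000 peaks in the pooled list of a chromatin immunoprecipitation sequencing (ChIP-seq) study of Sry-delta, and 69 of these 416 were also among the 6318 peaks of the study's optimal set. The members were all pooled peaks placed on chromosome 4 in genome build dm6 (Release 6), and each was marked by whether the same interval and summit stood in the optimal set. The pooled list is labelled as peaks and background, the input from which the optimal set was drawn. A pooled peak outside the optimal set may therefore be background. Sry-delta is a zinc finger protein, and it was tagged at its C-terminus with green fluorescent protein (GFP) in 1 stable transgenic fly line. Chromatin from whole embryos of both sexes, 0 to 24 hours old, was sonicated, and the tagged protein was pulled down with an anti-GFP antibody. The only group was 2 biological replicates, labelled 3 and 4. No untagged or input library was analysed here, and whole embryos mix all embryonic cell types, so a peak cannot be assigned to one of them. The authors' signal value of a peak is on a scale of its own in each list. How it was computed is not given in the sources used here, and sequencing depth is unknown.

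Most of chromosome 4 is packaged as heterochromatin, with heterochromatin protein 1a and methylated lysine 9 of histone H3 spread between and across genes, yet many of its genes are expressed at levels like those of genes in euchromatin. The chromosome-specific protein POF binds its genes, crossing over is all but absent, and its introns and intergenic stretches are rich in short transposable element remnants. The chromosome carries developmental regulators such as eyeless (ey), cubitus interruptus (ci) and pangolin (pan) beside genes every cell uses.

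The sequences at 6 summits show the core motif CGATA in its setting. The first 3 are the chromosome 4 peaks of highest signal that hold the DNA replication-related element (DRE, TATCGATA), the site of the factor DREF, within 100 bp of the summit. The next 2 are the peaks of highest signal without it, and the last is the highest peak more than 500 bp from the start site of a protein-coding gene. The DRE contains the core, so its presence in the first 3 was fixed by their choice. Capitals mark CGATA or its reverse complement TATCG, which overlap in the DRE. Each is the dm6 reference sequence, read 5′ to 3′ on the strand of the gene with the nearest start, with the summit at base 76. The Hcf sequence is chr4:359841-359967 on the plus strand, the ey sequence chr4:696857-697007 on the plus strand and the PlexA sequence chr4:1027084-1027234 on the minus strand. The PlexB sequence is chr4:43749-43899 on the minus strand, the pan sequence chr4:69223-69355 on the plus strand and the Asator sequence chr4:486626-486776 on the minus strand.
Hcf: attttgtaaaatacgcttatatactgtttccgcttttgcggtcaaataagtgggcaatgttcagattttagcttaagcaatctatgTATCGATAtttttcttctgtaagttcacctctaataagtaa
ey: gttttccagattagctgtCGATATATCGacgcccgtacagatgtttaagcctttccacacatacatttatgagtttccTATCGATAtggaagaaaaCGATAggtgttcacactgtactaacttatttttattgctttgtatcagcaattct
PlexA: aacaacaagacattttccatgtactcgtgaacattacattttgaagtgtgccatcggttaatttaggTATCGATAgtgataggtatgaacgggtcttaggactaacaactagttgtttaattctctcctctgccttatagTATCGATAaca
PlexB: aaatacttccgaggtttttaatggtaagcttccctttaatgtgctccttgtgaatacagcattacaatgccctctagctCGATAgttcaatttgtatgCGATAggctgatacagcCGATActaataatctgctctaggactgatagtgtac
pan: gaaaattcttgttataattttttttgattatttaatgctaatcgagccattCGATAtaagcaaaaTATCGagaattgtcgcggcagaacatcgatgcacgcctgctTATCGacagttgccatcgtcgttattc
Asator: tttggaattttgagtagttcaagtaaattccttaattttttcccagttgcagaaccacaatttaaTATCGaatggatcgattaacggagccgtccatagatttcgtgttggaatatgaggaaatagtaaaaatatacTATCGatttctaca
In the printed stretch the ey peak held 5 matches to the core, the PlexA peak 4 in the form of 2 DREs, the PlexB and pan peaks 3 each, and the Hcf and Asator peaks 2 each.

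The chromosome makes up 1.01% of the assembled length of the 6 arms and 0.574% of their protein-coding genes, and it held 1.39% of the pooled and 1.09% of the optimal peaks. The 69 optimal peaks were 16.6% of its 416 pooled peaks (exact Clopper-Pearson 95% interval 13.1 to 20.5%), against 21.1% of pooled peaks on all arms. The interval did not reach that share, and this and all later intervals cover counting error alone. In checks with 1 replicate list alone, the 6318 peaks of highest signal in that list stood in for the optimal set. With replicate 3 these made up 19.2% of the chromosome 4 peaks in its list (interval 15.4 to 23.5%). The interval then included the 21.1% of the other arms. It also did so with 1 summit per region, at 19.3% (interval 15.2 to 23.9%) against 23.4%. Per megabase, chromosome 4 had 309 pooled peaks against 223 on the other 5 arms, and 51.2 optimal peaks against 47.2. Its genes are sparse, with 59.3 coding genes per megabase against 105, so it had 86.3 optimal peaks per 100 coding genes where the other arms had 45.1. On the X, the arm nearest to it in these densities, the values were 53.8 optimal peaks per megabase and 57.7 per 100 coding genes.

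The optimal set was the 6318 pooled peaks of highest signal, so the line between a chromosome 4 peak inside it and one outside is a signal level. The lowest inside, 11399 bp upstream of the nearest start of dati, a zinc finger gene, had a pooled signal of 103.0, and the highest outside, in an intron of unc-13, had 99.4. Among the optimal peaks the median signal was 259 on chromosome 4 and 238 on the other arms, and the highest was 1514 against 7028. Of the 69, 9 ranked among the genome's 1000 highest peaks, where 15.9% of the optimal peaks on the other arms did. The highest of them was number 484 of the 6318. Over all pooled peaks the median signal was 31.6 on chromosome 4, the lowest of the 6 arms, and 35.6 on the other arms. In the lists of the replicates it was 18.6 against 19.4 in replicate 3 and 19.1 against 22.5 in replicate 4.

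Most of these peaks were in both replicate lists, at a share near that of all arms. Of the 416 pooled peaks, 271 (65.1%, interval 60.3 to 69.7%) overlapped a peak by at least 1 bp in both replicate lists, against 67.9% on all arms. A further 79 were in the replicate 4 list only (19.0%, against 17.0% on all arms) and 50 in the replicate 3 list only (12.0% on both). In neither list were 16 (3.85%, against 3.17%). All 69 optimal peaks were in both lists, as were 6227 of the 6249 on the other arms. The optimal set was derived from these lists, so its presence in both was largely fixed by that choice. Of the 347 other peaks 202 were in both (58.2%, against 59.4% on the other arms). The replicate 3 list itself held 380 chromosome 4 peaks and the replicate 4 list 425, each of 30000.

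Signal was higher in replicate 4 at 62 of the 69 optimal peaks (89.9%) and lower at 7. On the other arms it was higher in replicate 4 at 90.4% of the optimal peaks. The median log2 ratio of replicate 4 over replicate 3 was 0.50 (SD 0.48 over 69 peaks), and on the other arms it was 0.48 (SD 0.53 over the 6227 peaks in both lists). The scale of each list is its own, so this offset is no measure of binding. The highest ratios were 1.74 at a Sox102F start, 1.56 at a peak upstream of fuss and 1.54 between CG46466 and Slip1. The lowest were -0.64 at Eph, -0.25 at mGluR and -0.17 at a peak inside a Cr1a transposable element 8271 bp from the start of Taf3. Across the 69 peaks the 2 replicates ranked the signals alike, with a Spearman correlation of 0.893, and over the optimal peaks of the other arms it was 0.907. These points share libraries and regions and are described without a test.

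The 4 peaks of highest pooled signal stood at starts of PlexB, pan, CaMKII and Hcf. PlexB, which encodes a receptor for semaphorin guidance cues, had signals of 601 in replicate 3, 917 in replicate 4 and 1514 in the pooled list, with the summit 46 bp upstream of its start. At pan, the gene of the fly TCF factor that acts on Wnt target genes, they were 620, 675 and 1288, and the summit lay 28 bp upstream. The 2 replicates put these 2 genes in opposite order. CaMKII, a calcium/calmodulin-dependent kinase of synapses, had signals of 503 in replicate 3, 684 in replicate 4 and 1179 pooled, 89 bp upstream of a start. Hcf, the fly host cell factor of chromatin complexes, had 422, 711 and 1128, 22 bp upstream. Together with CG11360 and the interval over the starts of CG11076 and ATPsynbeta these were the start-site peaks with a pooled signal above 900. CG11360 had signals of 383, 672 and 1064 in replicate 3, replicate 4 and the pooled list.

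CG11076 and ATPsynbeta, the gene of the beta subunit of mitochondrial ATP synthase, shared 1 interval of 1434 bp, the longest on the chromosome in the optimal set. Its summits lay 2 bp upstream of a CG11076 start with a pooled signal of 1022 and 40 bp upstream of an ATPsynbeta start with 924. A replicate value is the highest peak overlapping the interval, so both summits carried the same 489 in replicate 3 and 623 in replicate 4. Below this group came PlexA, the other plexin, with 264 in replicate 3, 434 in replicate 4 and 681 pooled. The remaining peaks of the 20 highest ran from 554 at gw, whose protein acts in microRNA silencing, to 423 near RpS3A, a ribosomal protein gene. They included Actbeta, an activin ligand, at 526, the adaptor gene Crk at 499, and Taf3 and MED26, subunits of TFIID and Mediator, at 494 and 458. All 20 had a higher signal in replicate 4, and 17 of the 20 lay within 500 bp of a coding start.

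**Figure D1:**
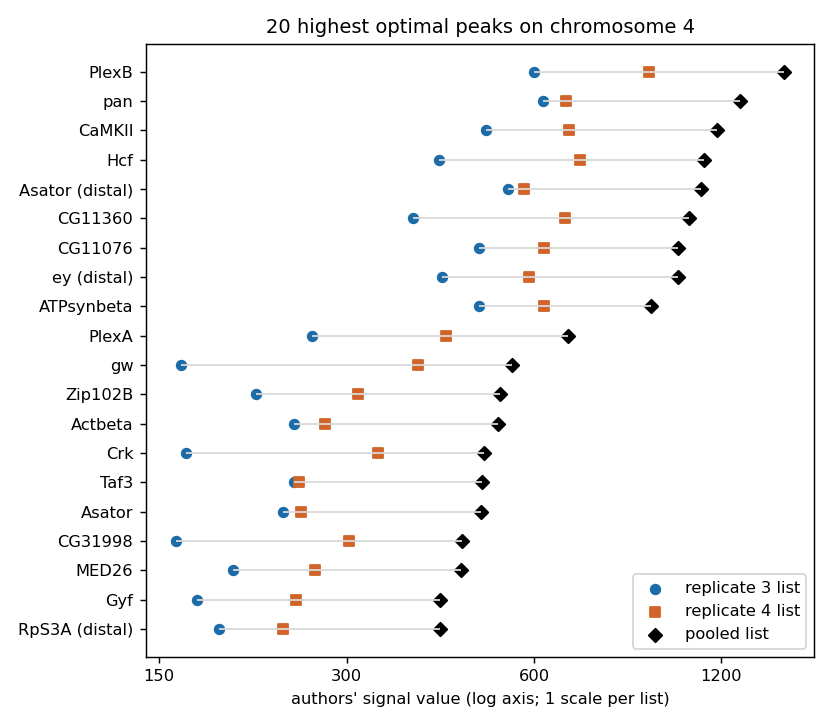
Authors' signal of the 20 highest optimal peaks of chromosome 4 (log axis, 1 scale per list), each named by the coding gene with the nearest start, with circles for replicate 3, squares for replicate 4 and diamonds for the pooled list. PlexB is highest in the pooled list at 1514 and pan in replicate 3 at 620, and replicate 4 is above replicate 3 in all 20.

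Optimal summits lay at genes of every role listed, from 5 of 14 transcription factor genes to 9 of 11 genes of basic cell functions, and the exact intervals of these shares overlap. A gene was counted as bound when an optimal summit lay within 500 bp of any of its annotated starts, and 43 of the 80 coding genes of the chromosome were (53.8%, interval 42.2 to 65.0%), against 39.0% of coding genes on all arms. The interval lay above that share. On the X, 45.4% were bound, a value inside the interval. Counted by distinct start rather than by gene, 58 of 142 starts on chromosome 4 (40.8%, interval 32.7 to 49.4%) and 35.0% of those on the other arms had a summit within 500 bp, and the interval included the second value. Chromosome 4 genes have 1.78 annotated starts each, and those of the other arms 1.40. With only the outermost start of each gene, an alternative added after seeing the data, the shares were 46.3% (interval 35.0 to 57.8%) and 37.4%, and the interval included the second value.

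Among genes of basic cell functions, 9 of 11 on the chromosome were bound (81.8%, interval 48.2 to 97.7%). The interval included the 53.8% of all chromosome 4 genes and lay above the 39.0% of all arms. The list was chosen with earlier results of these data known, and genes of these roles on the other arms were not counted. The second comparison therefore says nothing about chromosome 4 itself. Hcf at 1128 and ATPsynbeta at 924 led the bound genes. The others were gw at 554, Gyf, a partner in translational repression, at 424, the small GTPase gene Arl4 at 359, RpS3A at 343, the translation initiation factor gene eIF4G1 at 290, Rad23, a ubiquitin shuttle, at 265 and ND-49, a subunit of respiratory complex I, at 218. The 2 without an optimal summit were 4E-T, whose protein binds the cap-binding factor, and Pur-alpha. Both had a weak pooled summit within 500 bp, of 35.7 and 70.5.

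Of 15 signalling genes, 9 were bound (60%, interval 32.3 to 83.7%), near the 53.8% of all chromosome 4 genes. The interval included that share and the 39.0% of all arms. After PlexB and PlexA the highest were Actbeta at 526, Crk at 499 and the kinase gene Asator at 494. Dyrk3, a kinase gene, had 267 from a summit it shares with Cadps, and Slip1 had 224 from a summit it shares with CG46466. The guidance ligand Ephrin and its receptor Eph had 215 and 131, both below the plexins. Without an optimal summit within 500 bp were lgs, the Wnt coactivator that binds beta-catenin, and the TGF-beta family ligands mav and myo. The kinase genes CaMKI and PIP4K and the gene RhoGAP102A also had none there.

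Among 14 transcription factor genes 5 were bound (35.7%, interval 12.8 to 64.9%), a share whose interval includes both the 53.8% of all chromosome 4 genes and the 39.0% of all arms. The signal of pan, 1288, was followed by 280 at pho, whose protein recruits Polycomb complexes, 183 at ey, the Pax6 gene of eye development, 146 at an inner start of Sox102F and 105 at Mitf, a regulator of lysosomal genes. The 9 without one were ci, which carries the Hedgehog signal, the second Pax6 gene toy, the Pax2 gene sv, and zfh2, onecut, fd102C, NfI, fuss and dati. All of these but sv had a pooled summit within 500 bp of a start, the highest at onecut with 86.4 and zfh2 with 64.6, then dati at 39.4, toy at 36.7, ci at 35.6 and the rest lower. Apart from sv, these genes thus had entries in the pooled list that fell under the level of the optimal set. That list also holds background, from which such entries cannot be told apart here.

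Genes of neurons, muscle and transport were bound in 8 of 16 cases (50%, interval 24.7 to 75.3%), near the 53.8% of all chromosome 4 genes. The interval also included the 39.0% of all arms. The zinc transporter gene Zip102B had 529, unc-13 and Cadps, which prime synaptic and dense-core vesicles, had 387 and 366, and the calcium pump gene PMCA had 376. The lipoprotein gene apolpp and the focal adhesion gene Zyx shared a summit of 307, and Ank and mGluR had 196 and 127. The titin-like muscle gene bt, the transporter gene Gat and the vesicle gene Syt7 were among the 8 unbound. Of the 24 genes in none of these lists, 12 were bound (50%, interval 29.1 to 70.9%).

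Nearly every coding gene of the chromosome had some pooled summit. Of the 80, 70 had a pooled summit within 500 bp of a start (87.5%, interval 78.2 to 93.8%), against 57.9% on the other arms. The 27 with a pooled but no optimal summit had a best signal between 18.8 and 96.9, with a median of 37.1. The median over all pooled peaks of all arms was 35.5, and the pooled list includes background, so these summits need not be binding. The 10 with none were JYalpha, CG32006, CG31997, yellow-h, RhoGAP102A, CG1909, Gat, myo, sv and Kif3C.

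**Figure D2:**
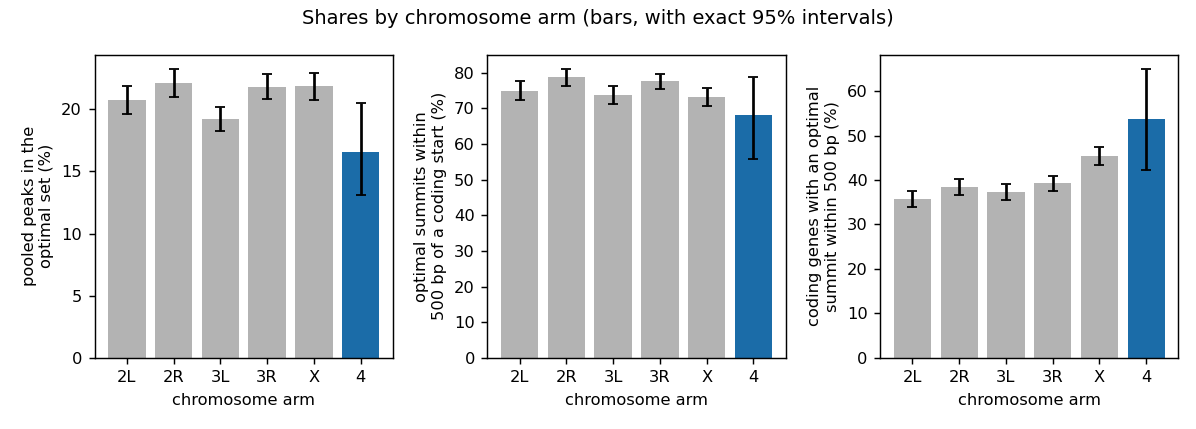
Shares on each chromosome arm, with exact 95% intervals as error bars: pooled peaks in the optimal set, optimal summits within 500 bp of a coding start, and coding genes with an optimal summit within 500 bp. Chromosome 4 (blue) has the lowest share in the first 2 panels, at 16.6% and 68.1%, and the highest in the third, at 53.8%.

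Of the 69 optimal summits, 47 lay within 500 bp of a coding start (68.1%, interval 55.8 to 78.8%), against 75.7% on all arms, a share inside the interval. These 47 had a median distance of 64 bp from the start, and those of the other arms 55 bp. On chromosome 4, 43 of the 47 were upstream (91.5%, interval 79.6 to 97.6%), and on the other arms 79.4%, just outside the interval. With the 6318 highest peaks of either replicate list alone, the interval included the other arms' share. It also did so with 1 summit per region or with the upper part of the optimal set by signal. The lowest value was 79.6% (interval 65.7 to 89.8%) against 72.1%, with the replicate 3 list. The summits within 500 bp of starts of more than 1 gene were 5: those of Cadps and Dyrk3, of CG46466 and Slip1, of apolpp and Zyx, of Ephrin and ND-49, and of ATPsynbeta and CG11076. A pooled peak near a start was in the optimal set in 47 of 124 cases (37.9%, interval 29.3 to 47.1%) on chromosome 4 and in 45.8% on the other arms. Away from starts the shares were 7.53% (22 of 292, interval 4.78 to 11.2%) and 7.87%. The optimal peaks near starts had a median signal of 307 on chromosome 4 and 302 elsewhere.

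**Figure D3:**
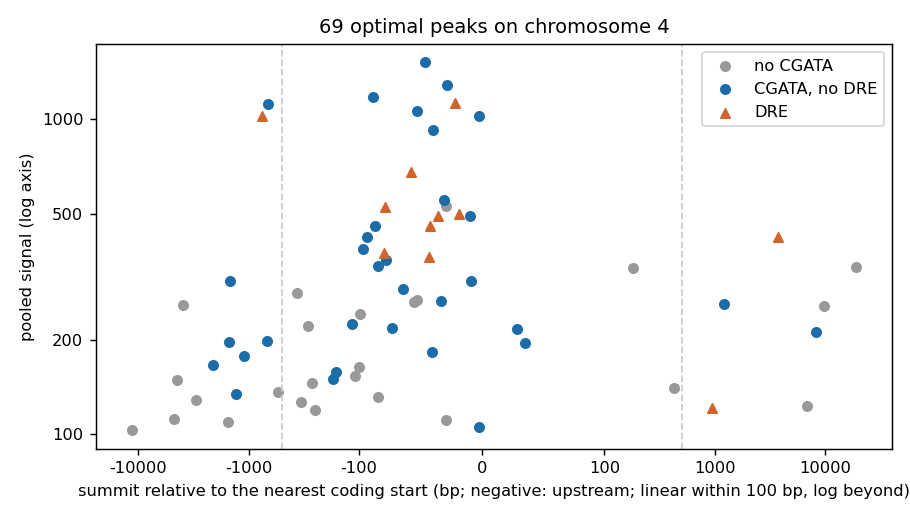
Pooled signal (log axis) of the 69 optimal peaks of chromosome 4 against the position of the summit relative to the nearest coding start (bp, linear within 100 bp and log beyond), with dashed lines at 500 bp, by whether a DRE (orange triangles), a CGATA without a DRE (blue) or neither (grey) lay within 100 bp. The 9 peaks above 900 all hold CGATA, and all but the distal peaks of Asator and ey lie within 100 bp of a start.

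The 22 optimal peaks farther than 500 bp from a coding start had a median signal of 186, against 153 for such peaks on the other arms. They lay mostly between genes: 17 were outside coding genes (77.3%, interval 54.6 to 92.2%), 2 in introns, 2 in coding exons and 1 in a 3′ untranslated region. On the other arms 32.3% of such peaks were outside coding genes and 62.1% in introns, both outside the chromosome 4 intervals, the second of which was 1.12 to 29.2%. Coding genes span 75.5% of chromosome 4 and 67.1% of the other arms. Relative to the nearest start, 15 of the 22 were upstream and 7 downstream.

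The 2 highest distal peaks ranked 5 and 8 among all 69 optimal peaks of the chromosome, below the start-site peaks of PlexB, pan, CaMKII and Hcf. One lay in an intron of Asator, 668 bp upstream of an inner start, with signals of 546 in replicate 3, 578 in replicate 4 and 1115 pooled. The other lay 757 bp upstream of the nearest ey start, with 428, 590 and 1022, and its start-site neighbour, 41 bp upstream of ey, had only 43.9, 122 and 183. Of these 2 peaks, both replicates thus placed the one of higher signal at the upstream position. Its summit also lies 877 bp upstream of the start of myo on the other strand, so the peak cannot be assigned to ey alone. The third, 3716 bp downstream of the RpS3A start and beyond the end of that gene, had 187, 237 and 423, and RpS3A's own start-site peak 145, 198 and 343.

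The other distal peaks were lower. The peak 19088 bp from lgs had signals of 104 in replicate 3, 234 in replicate 4 and 339 pooled, that 1492 bp upstream of 4E-T 156, 152 and 308, and that in a coding exon of ATPsynbeta 135, 125 and 259. Pooled signals were 257 at 3926 bp upstream of zfh2, a homeodomain gene, 255 at the overlapping ends of Cals and sv, 211 near Taf3, 198 at 689 bp upstream of Sox102F and 177 at 1108 bp upstream of PlexB. At fuss, a Ski family gene, they were 196 at 1518 bp and 149 at 4458 bp upstream, and a second peak near 4E-T had 129. A further 2 peaks upstream of Asator starts had 166 and 136, one upstream of pho 134, one in a coding exon of RhoGAP102A 123 and one in an intron of CG33521 121. The lowest were those upstream of toy at 112, Arl4 at 110 and dati at 103.0.

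Among the distal peaks 2 stretches were singled out after their positions had been seen, with no test of clustering. Between 481980 and 497884, from inside Asator towards zfh2, lay 6 optimal summits within 15.9 kb, 4 of them distal. Between 959884 and 984961, from 4E-T past fuss towards toy, lay 5 within 25.1 kb, all distal, and none of the starts of 4E-T, fuss and toy was bound. A width of exactly 484 bp was recorded for 10 of the 22 distal intervals and 2 of the 47 near starts. This is the most frequent width in the pooled list and that of 336 of the 347 chromosome 4 peaks outside the optimal set. On the other arms 40.5% of distal and 12.4% of start-site optimal peaks had it, so the width there splits the same way. Intervals of this width have their summit at the middle, so their edges carry no shape of the peak. Optimal peaks of this width had a median signal of 130 on chromosome 4 and 121 on the other arms.

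Optimal peaks were spread along the chromosome up to its last gene. In successive windows of 100 kb, their number was between 2 and 10 until the last window, with the most between 400001 and 500000 bp. The first optimal summit was that of PlexB at 43824 and the last that of Cadps at 1231840, 116 kb before the assembled end at 1348131. Beyond it lay 7 weaker pooled peaks, of at most 68.9, the last with its summit at 1254260. No coding gene has its outer start beyond the last optimal summit, and annotated transposable elements make up 95.4% of the sequence past 1300001 bp.

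On chromosome 4, summits outside the optimal set, which may be background, lay in transposable elements more often than those inside it. Annotated elements cover 24.8% of chromosome 4 and 5.74% of the other arms. Of the 416 pooled summits, 68 lay in one (16.3%, interval 12.9 to 20.3%), against 0.439% on the other arms. Among the 347 peaks outside the optimal set the share was 18.4% (interval 14.5 to 22.9%), and among the 69 optimal peaks 4 summits lay in one (5.80%, interval 1.60 to 14.2%), against 0.304% on the other arms. All of these shares on chromosome 4 were below the covered 24.8%. How the authors treated reads that match several copies is not given in the sources used here, and its part in these counts was not tested.

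INE-1, the short and old element most frequent on the chromosome with 344 annotated copies, held 39 of the 68 summits. The 1360 element, a target of heterochromatin formation in fly reporter studies, held 8, Cr1a 6 and FB 4. The 4 optimal summits were in 1360 copies 1557 bp upstream of Arl4 (pooled signal 110) and 1311 bp upstream of pho (134), in the Cr1a copy near Taf3 (211) and in an INE-1 copy 290 bp upstream of a CaMKII start (221). The last shares its region with the CaMKII peak of 1179. At the pho copy the replicates had 65.9 and 67.6, and at the Arl4 copy 46.4 and 65.8.

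Base composition at the summits differed from that of the other arms. Chromosome 4 is AT-rich, with 35.2% GC against 42.2%. Within 100 bp of the optimal summits the median GC was 34.8% on chromosome 4 and 37.8% on the other arms, and in windows of the same length 500 bp to each side it was 32.3% and 44.8%. The summits were thus richer in GC than flanks at this distance on chromosome 4 and poorer on the other arms. In windows of 51 bp the mean at the summit was 37.1% (SE 0.903 over 69 peaks) and 500 bp upstream along the chromosome 33.7% (SE 1.40). On the other arms these means were 40.5% (SE 0.135) and 44.6% (SE 0.160). Nearer the summit both sets rose towards it. At 100 bp upstream along the chromosome the means were 33.1% on chromosome 4 and 36.9% on the other arms. At 100 bp downstream they were 32.9% and 38.0%.

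**Figure D4:**
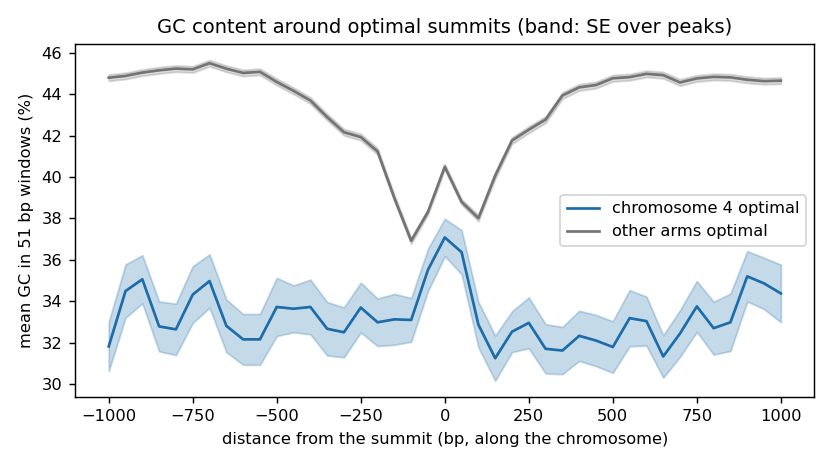
Mean GC percent in 51 bp windows against distance from the optimal summit (bp, along the chromosome), for 69 peaks of chromosome 4 (blue) and 6249 of the other arms (grey), with bands for the standard error over peaks. Both sets rise locally at the summit, to 37.1% on chromosome 4 and 40.5% on the other arms. At 500 bp chromosome 4 is lower than at its summit, and the other arms are higher, at about 44.6%.

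The CGATA core was the sequence that most of the optimal peaks shared. The DRE lay within 100 bp of 11 of the 69 summits (15.9%, interval 8.24 to 26.7%), against 15.0% on all arms, and in 2.17% of the chromosome 4 flanks. The core CGATA, on either strand and counted also inside a DRE, was at 44 of the 69 (63.8%, interval 51.3 to 75.0%), in 22.5% of the flanks and at 53.5% of the optimal summits of the other arms. Windows of the same length on annotated coding starts held the core at 42.3% of 142 chromosome 4 starts and 37.1% of those elsewhere, and the DRE at 6.34% and 6.45%. Peaks outside the optimal set held them less: of the 347 on chromosome 4, 28.5% had the core, against 23.8% of their flanks, and 5.48% (interval 3.33 to 8.42%) had a DRE, against 1.44% of their flanks. Distal optimal peaks had the core in 12 of 22 cases (54.5%), against 31.9% on the other arms, and start-site peaks in 32 of 47 (68.1%), against 60.4%.

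The core was most frequent at high signal. Of the 23 optimal peaks of highest signal on chromosome 4, from 1514 down to 366, 22 held CGATA (95.7%), and the exception was Zip102B. Of the 23 in the middle 14 held it (60.9%), and of the 23 lowest 8 (34.8%). The DRE was at 10, 0 and 1 of them, and the 1 low peak was that in CG33521 at 121. On the other arms the same division by signal gave 80.4%, 45.8% and 34.2% for the core and 28.4%, 11.7% and 4.94% for the DRE. The middle and lowest groups of chromosome 4 include lesser summits without CGATA in the regions of Hcf, CaMKII, PlexB and PMCA. The higher summits of those regions hold it. The division was not repeated with 1 summit per region. Distance to starts moved with signal too, since 20, 15 and 12 of each 23 on chromosome 4 lay within 500 bp of one, and its part in the motif shares was not tested. The DRE peaks of highest signal were Hcf, ey, PlexA, Actbeta, Crk, Taf3 and MED26, and the sequences printed above for PlexB and pan reach as high with 3 separate copies of the core.

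**Figure D5:**
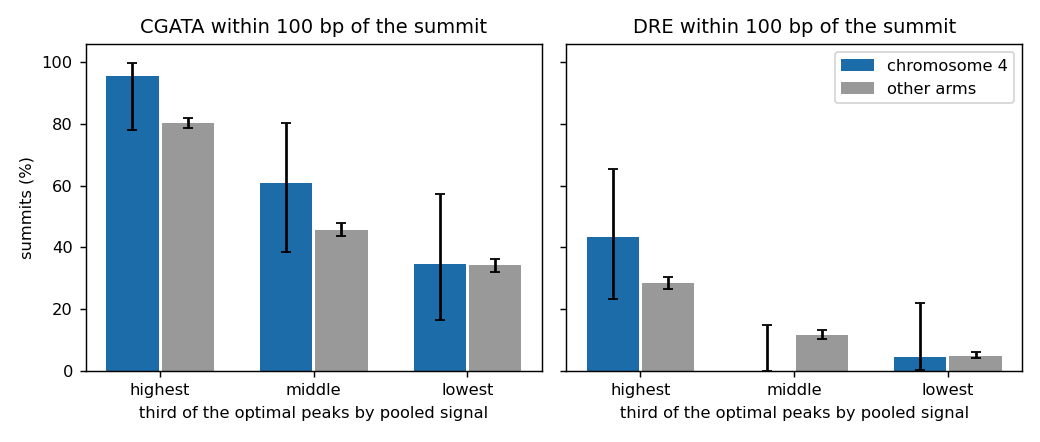
Percent of optimal summits with CGATA (left) or the DRE (right) within 100 bp, for chromosome 4 (blue, 23 peaks a bar) and the other arms (grey, 2083 a bar) divided by pooled signal, with exact 95% intervals. On chromosome 4 the CGATA bars fall from 95.7% to 34.8%, and the DRE is at 10, 0 and 1 peaks.

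Other core promoter and factor motifs were sought on both strands. Motif 1 and Motif 6, core promoter elements of broadly expressed fly genes, allowing 1 mismatch, were each at 8 of 69 summits (11.6%), against 13.9% and 10.9% on the other arms, and at 0% and 4.35% of the flanks. Motif 7 was at 3 summits (4.35%, interval 0.906 to 12.2%) against 13.6%, and the E-box CAGCTG at 2 (2.90%, interval 0.353 to 10.1%) against 14.3%, both shares elsewhere being above the interval. Chromosome 4 starts hold these 2 less often too, Motif 7 at 2.11% against 6.84% and the E-box at 5.63% against 13.5%. The CTCF core AGNNGGCG was at 4 summits (5.80%) against 8.24%, and the Zelda site CAGGTA at 1 (1.45%) against 4.16%. The GAGA repeat GAGAGAG was at 1 (1.45%) against 3.07%, and the Pho core GCCAT at 16 (23.2%), as in the flanks, against 29.99%. For each of these motifs the chromosome 4 interval included the share elsewhere. The Initiator TCAGT was at 27.5%, also as in the flanks. The TATA box TATAAA was at 26.1% of summits on chromosome 4 and elsewhere, and in 43.5% of the AT-rich chromosome 4 flanks. The Sry-delta consensus from in vitro binding, with at most 2 mismatches, was at 4 summits (5.80%, interval 1.60 to 14.2%), 3.62% of the flanks and 6.71% of the summits elsewhere. Those 4 were CG11076, the start-site peak of Asator, pho and Ephrin.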

How the data were processed

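Peak lists in the narrowPeak layout were deposited for each replicate, for both pooled and for the optimal set. The README files that the authors deposited state that replicate and pooled lists were called against a control, and that the optimal set came from them by irreproducible discovery rate. For the aligner, peak caller, threshold and depth, nothing is given in the sources used here. Signal values are the authors' own deposited ones and were used only to describe and rank peaks. Coordinates are 1-based in dm6, and genes, starts and transposable elements came from the Ensembl release 115 annotation.

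Shares, medians and exact intervals were computed with Python 3.11.15, numpy 2.4.6, pandas 2.3.3 and scipy 1.17.1, and the search functions were tested on simulated data. Peaks overlapping by at least 1 bp were matched between lists. No test between groups was possible with 1 group. Peaks were named by the nearest coding start: the 20 highest and 5 lowest optimal, all distal optimal, the 10 highest outside the optimal set (of which only the highest is described), and the extremes of the replicate ratio. All members of the gene lists were considered, and 2 listed symbols, Arf102F and Thd1, matched no chromosome 4 gene. The members, lists and motifs were chosen with earlier results of these data known. The replicates are labelled biological, and other alternatives covered windows, overlap, number of peaks, build dm3, 1 summit per region and mismatches.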

Additional observations from a re-analysis of the deposited data

How the results depend on the processing

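Of 59 alternatives over 13 results, 47 stayed within a set range of the reported chromosome 4 value and 12 moved beyond it. The range was the counting interval for shares and the SD over peaks for medians. For the number and density of peaks it was a fixed fold range, which measures no counting error. The optimal share lay below that of the other arms, with an interval that excluded it, in the main lists, the dm3 lists and replicate 4 alone. The interval included it with replicate 3 alone, with 1 summit per region, with the upper part of the set (10.5% on the other arms) and with 1 bp of overlap as membership, at 23.1% against 26.5%. The share of bound genes exceeded that of the other arms, with an interval that excluded it, under 6 alternatives, the exception being the outermost start alone. With only the upper part of the optimal set by signal, 9.13% of pooled peaks were optimal, the density was 28.2 per megabase, 78.9% of summits lay near starts (89.5% on the other arms) and 37.5% of genes were bound (26.4%). With all pooled peaks, the last 2 were 29.8% and 87.5%. The share in both replicate lists was 58.4% when 50% of the peak had to overlap and 37.7% with 15000 peaks per replicate. A DRE with 1 mismatch was at 42.0% of summits, and CGATA within 50 bp at 47.8%. Using the list of either replicate alone gave 380 to 425 peaks, with 15.0 to 15.8% of summits in transposable elements. The 6318 highest peaks of that list then stood in for the optimal set. They held 16.0 to 19.2% of the list's chromosome 4 peaks, or 50.4 to 54.1 per megabase. Of these, 67.1 to 69.1% lay near starts, and 53.8 to 55.0% of genes were bound. A DRE was at 15.1 to 17.6%, CGATA at 60.3 to 63.2%, and the median GC was 34.8 to 35.3%. Of distal summits 70.8 to 76.2% lay outside genes, and of start-site summits 79.6 to 87.2% lay upstream. The alternatives for upstream, distal, transposable element and CGATA shares, and 1 summit per region for the optimal share, were added after seeing the data. The cause of these shifts was not tested. No paired analysis was possible because there is 1 group. Depth is unknown, 2 libraries give no spread for any single peak, and the control the authors called peaks against was not analysed here.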

Other observations

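Bound genes of chromosome 4 had a somewhat higher median length and more annotated starts than unbound ones, and neither difference was tested. A gene counts as bound through any of its starts, so a difference in starts is partly built into the definition. The 43 coding genes with an optimal summit within 500 bp of a start had a median length of 11.3 kb and 1.93 annotated starts on average, and the 37 without one 9.10 kb and 1.59. Divided at 5 kb, a length chosen after seeing the data, 33 of 62 long genes (53.2%, exact interval 40.1 to 66.0%) and 10 of 18 short genes (55.6%, interval 30.8 to 78.5%) were bound on chromosome 4. On the other arms 46.4% of long and 36.5% of short genes were bound, both inside the respective intervals.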
